A study of Mus musculus with 11 samples.

Results

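Hair follicle stem cell and upper follicle genes were followed in mouse back skin inflamed with imiquimod, in animals with and without the exonuclease gene Trex2. The 9 genes, Lrig1, Lgr5, Lgr6, Sox9, Lhx2, Krt75, Krt79, Plet1 and Cd200, were chosen by symbol from the 38406 rows of the deposited expression table. Plet1 stood there under its older symbol 1600029D21Rik. RNA came from pulverized whole back skin of female C57BL/6 mice aged 8 to 10 weeks, which were shaved and then given 125 mg of 5% imiquimod cream on each of 4 days, with skin taken 24 hours after the last dose. Imiquimod is an agonist of the innate receptor TLR7 that is used to produce psoriasis-like skin inflammation in mice. There were 5 wild-type mice (replicates 2 to 6) and 6 Trex2-/- mice (replicates 7 to 12), whose allele is constitutive and not limited to 1 cell type by a Cre driver as far as the labels say. All 11 animals carried the treatment, and untreated skin is not analysed here, so each comparison is between genotypes within treated skin.

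The hair follicle is renewed by stem cells in several zones. The bulge and the hair germ below it, which rebuild the lower follicle at each hair cycle, are known for SOX9, LHX2, LGR5 and CD200. The isthmus and junctional zone above the bulge, which maintain the upper follicle and the sebaceous gland, are known for LRIG1, LGR6 and PLET1, while KRT79 lines the canal that opens to the skin surface and KRT75 belongs to the companion layer of the lower follicle. None of these genes is made by follicle cells alone. In bulk skin, fewer cells of a type and less RNA per cell cannot be told apart.

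Levels were normalized counts, which are read counts divided by 1 size factor per library. Depth was 1208896 to 5853454 counted reads per wild-type library and 3125366 to 15557862 per knockout library, and 3 reads, taken as the limit of detection, were worth 1.04 to 13.5 normalized counts. Trex2 itself averaged 1480 ± 446 (SD, n = 5) across wild-type libraries and 1.85 ± 0.909 (SD, n = 6) across knockouts, as the labels give it. Keratinocyte genes were higher on average in knockout, though none of those scored here passed an adjusted p of 0.05 in limma. A basal keratinocyte score, the mean log2(normalized count + 1) of 8 genes such as Krt5, Krt14 and Trp63, was 10.93 ± 0.54 over wild-type and 11.76 ± 0.44 over knockout libraries (SD, n = 5 and n = 6; exact permutation test, two-sided, p = 0.0303). A suprabasal score over 8 differentiation genes was 8.28 ± 1.47 and 10.00 ± 1.20 (exact permutation p = 0.0649), and knockout replicates 9 and 12 and wild-type replicate 4, at 11.78, 11.23 and 10.60, stood above the other 8 libraries. Follicle structure genes were uneven. The hair shaft keratins Krt31 and Krt33b had no reads, and the inner root sheath keratins Krt71, Krt72, Krt73, Krt25, Krt27 and Krt28 had means of at most 1.39 normalized counts in either genotype.

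The sequence before the transcription start is shown for 3 of the genes on which the results turn: Lrig1, in which the genotypes separated, and the keratin genes Krt75 and Krt79, both of the type II keratin cluster, in which wild-type replicate 4 and knockout replicate 9 were lowest for the first and highest for the second within their groups. These are the 250 bases 5′ of the RefSeq start on GRCm38.p6, read 5′ to 3′ on the gene's strand, with E-box letters in capitals. The Lrig1 stretch is chr6:94700146-94700395, the Krt75 stretch chr15:101573905-101574154 and the Krt79 stretch chr15:101940325-101940574, all on the minus strand. The start-proximal end of the Lrig1 stretch reaches into the slightly longer gene of the GENCODE annotation.
Lrig1: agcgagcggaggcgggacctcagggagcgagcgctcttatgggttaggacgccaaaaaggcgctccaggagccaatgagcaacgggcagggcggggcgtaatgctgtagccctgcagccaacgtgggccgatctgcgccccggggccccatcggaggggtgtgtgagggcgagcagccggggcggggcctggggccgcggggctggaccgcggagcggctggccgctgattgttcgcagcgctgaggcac
Krt75: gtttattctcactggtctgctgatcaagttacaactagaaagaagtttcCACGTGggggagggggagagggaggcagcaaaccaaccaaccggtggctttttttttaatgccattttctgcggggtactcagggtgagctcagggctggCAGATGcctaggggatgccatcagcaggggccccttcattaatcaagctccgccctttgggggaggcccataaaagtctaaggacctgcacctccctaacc
Krt79: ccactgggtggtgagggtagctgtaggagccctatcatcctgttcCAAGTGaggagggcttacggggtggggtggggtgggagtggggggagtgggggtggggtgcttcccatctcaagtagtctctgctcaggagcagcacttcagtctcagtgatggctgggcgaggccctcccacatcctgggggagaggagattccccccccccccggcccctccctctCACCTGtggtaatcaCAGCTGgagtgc
The E-box was searched as CANNTG, the letters bound by basic helix-loop-helix factors, and reads the same way on both strands. Krt75 held 2 matches, Krt79 held 3 and Lrig1 held 0, in a search where 66.2% of 32851 RefSeq promoters of this length held at least 1. The TCF/LEF letters CTTTGAT (the DNA partners of WNT signalling), the homeodomain letters TAATTA (LHX2 is a homeodomain protein) and the AP-1 letters TGACTCA were each searched on both strands and were found in 3.21%, 4.84% and 4.46% of those promoters. None of the 3 was found in the promoters of the 7 genes that had a sequence, which left out Lgr5 and Sox9. The GC content was 71.6% for Lrig1, 53.6% for Krt75 and 64.0% for Krt79, with a median of 52.4% over all promoters.

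Expressed per kilobase of exon, so that genes can be set against each other, Plet1 and Krt75 were the most abundant of the 9 and the LGR receptors the least. Plet1 had a wild-type mean level of 660 normalized counts per kb, Krt75 had 225 and Cd200 73.0. Lrig1 at 26.8, Sox9 at 26.1 and Krt79 at 22.9 formed a middle group, followed by Lhx2 at 4.39, Lgr6 at 0.569 and Lgr5 at 0.420. The order of the means was the same in knockout skin, from 624 for Plet1 to 0.837 for Lgr5. Plet1 exceeded Krt75 in 10 of 11 libraries, and Krt75 exceeded Cd200, Cd200 exceeded Lrig1 and Lhx2 exceeded Lgr6 in all 11. Inside the middle group the order was not fixed, since Lrig1 exceeded Sox9 in 6 of 11 libraries and Sox9 exceeded Krt79 in 8 of 11. Lgr6 exceeded Lgr5 in all 6 knockout libraries but in 2 of 5 wild-type libraries. This order rests on few reads, 15 of Lgr5 and 11 of Lgr6 in all wild-type libraries together. In knockout replicates 8 and 10 Lgr6 had no more reads than Lgr5 (5 against 5 and 21 against 30). There its higher level came from dividing by a shorter exon length.

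**Figure D1:**
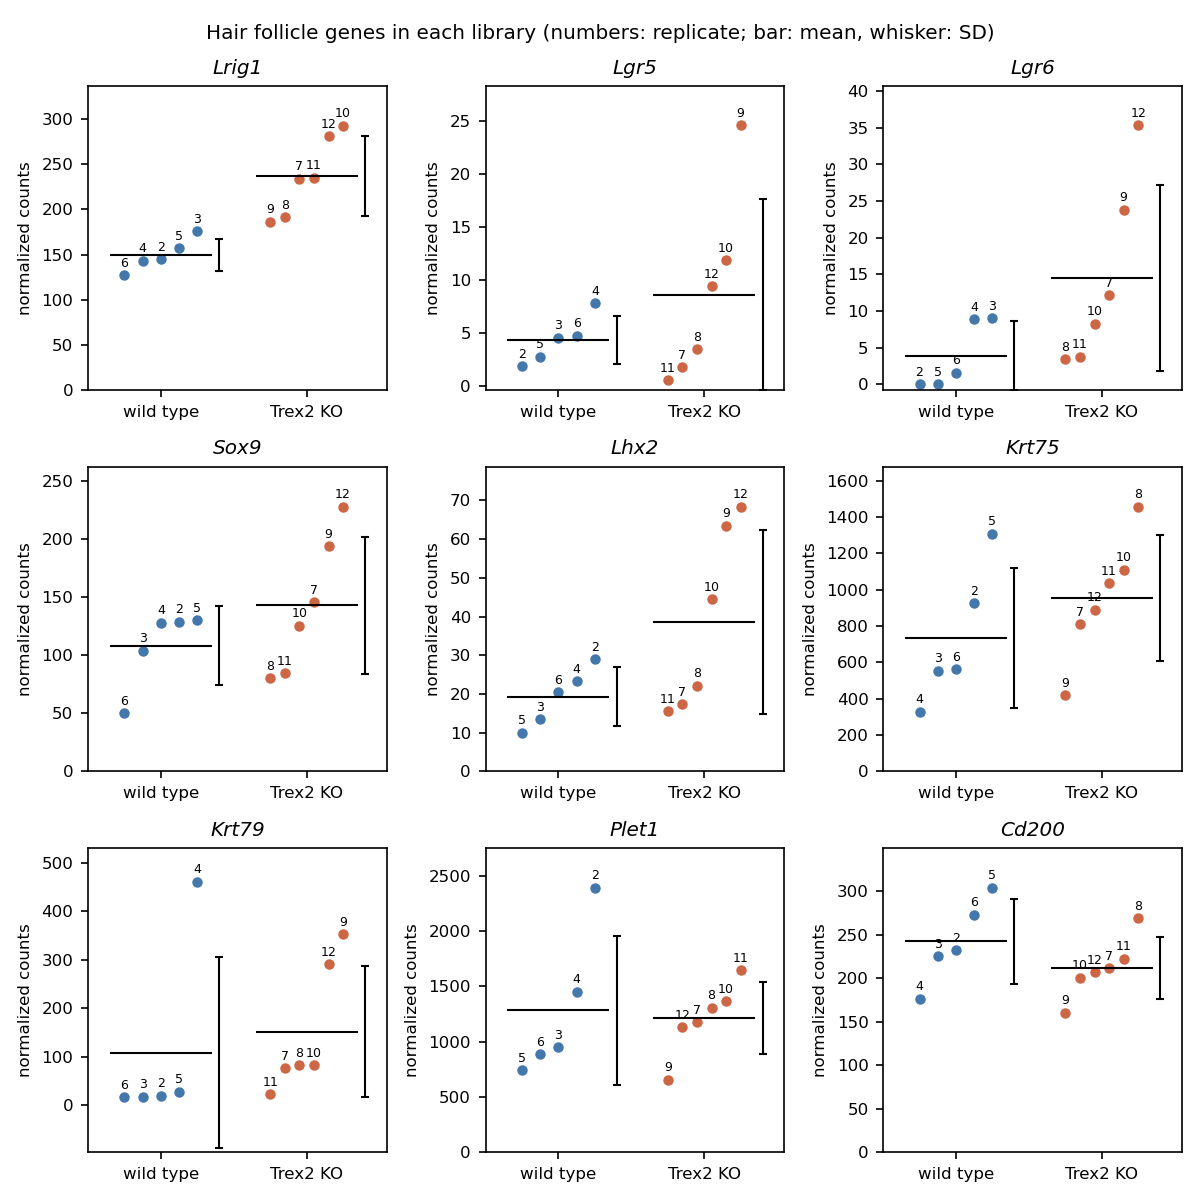
Normalized counts (vertical axes, linear) of the 9 genes in 5 wild-type and 6 Trex2 knockout libraries, each point labelled with its replicate number, with the group mean as a line and the SD as a whisker. Lrig1 is the gene whose groups do not overlap, and for Lgr5, Lgr6, Sox9, Lhx2 and Krt79 knockout replicates 9 and 12 lie among the 3 highest knockout points.

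The first question was whether the genes differed between the genotypes. None of the 7 that could be tested, those with a mean of at least 10 normalized counts, passed an adjusted p of 0.05 in limma, where 0.0151% of 13215 genes passed (2 genes, Trex2 among them). An unadjusted p under 0.05 was found for 1 of the 7, Lrig1, against 24.4% of all genes tested (12.9% higher in knockout). Of the 7 genes 6 had a log2 fold change above 0, knockout over wild type, with a median of 0.44 against 0.01 for all genes, 51.0% of which were above 0. DESeq2, run on the recovered reads, called 1 of the 7 higher, against 4.36% of all genes called and 2.21% called higher. By edgeR 0 of the 7 were called, against 0.0303% of all genes, and by limma with array weights 0, against 0.0454%. The median was −0.21 with the basal keratinocyte score as a covariate, a score that itself differed between the genotypes.

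**Figure D2:**
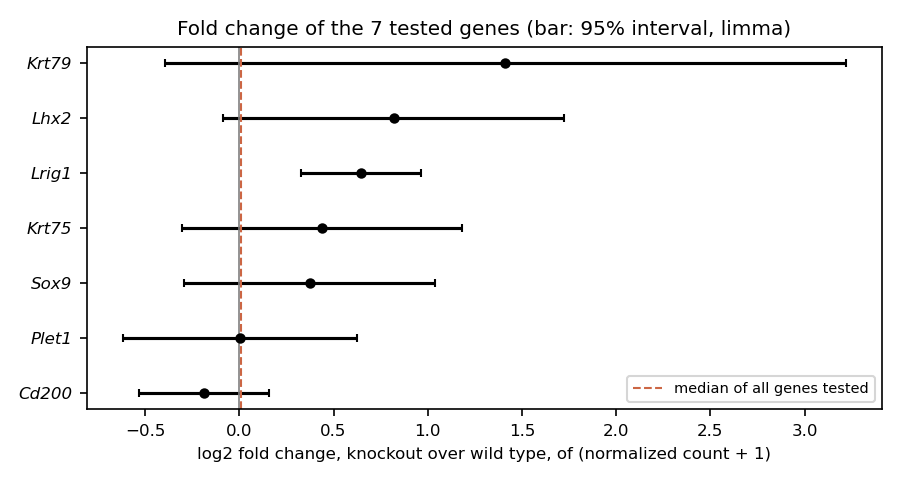
Log2 fold change of the 7 tested genes, knockout over wild type, of normalized count + 1 (horizontal axis), as a point with its 95% interval from limma, and the median of all 13215 genes tested as a dashed line. The interval of Lrig1, 0.33 to 0.96, lies above 0, and the other 6 intervals include 0.

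Lrig1 encodes a transmembrane protein that restrains the ERBB receptors, and marks stem cells of the junctional zone. It lies on the minus strand of chromosome 6 (GRCm38, chr6:94604529-94700158, ENSMUSG00000030029.14). Wild-type replicates 2 to 6 had 145, 176, 143, 157 and 127 normalized counts of Lrig1, and knockout replicates 7 to 12 had 234, 191, 187, 293, 235 and 281. Every knockout library was above every wild-type library, which was the case for 1.02% of all genes tested. The means were 150 ± 18.1 and 237 ± 43.9 (SD, 5 and 6 mice), and the limma log2 fold change was 0.65 (SE 0.15), a 1.56-fold level with a 95% interval of 1.25 to 1.95. The limma adjusted p was 0.108. DESeq2 gave adjusted p = 0.0146 and edgeR adjusted p = 0.130 for nearly the same Lrig1 fold change (log2 0.67 in each).

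The Lrig1 difference was as large without the knockout libraries that were highest in the suprabasal score. Without knockout replicates 9 and 12 the log2 fold change of Lrig1 was 0.66 (limma adjusted p = 0.352), and with the basal keratinocyte score as a covariate it was 0.56 (limma adjusted p = 0.994). Knockout replicates 10, 11 and 12, the highest in Lrig1, were also the deepest libraries. The estimate was 0.60 with a depth covariate (limma adjusted p = 0.892) and 0.56 with thinned reads (limma adjusted p = 0.556). In libraries of 3000000 to 8000000 reads it was 0.50 (limma adjusted p = 0.566). Without wild-type replicate 4 the limma adjusted p was 0.0455, in a fit that called 5.6% of 13204 genes, with 3.5% of all genes higher in knockout. Exons of Lrig1 overlap those of Slc25a26 on the other strand, and the strand setting of the counting is not given in the sources used here. Slc25a26, a mitochondrial carrier, averaged 15.8 ± 4.17 normalized counts over wild-type and 23.8 ± 3.53 over knockout libraries (SD, 5 and 6 mice), far below Lrig1 and with a similar log2 fold change, 0.58 (SE 0.23, limma adjusted p = 0.155).

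The relatives and partners of Lrig1 were looked at in a list of 14 genes of the LRIG and ERBB family and their ligands. Of 13 tested 11 had a positive log2 fold change (median 0.24), and 4 had an unadjusted p under 0.05, all higher in knockout, against 24.4% of all genes tested and 12.9% that were higher. None of the 13 passed in limma, and DESeq2 called 3 higher, against 2.21% of all genes. Lrig2 stood at 0.26 (SE 0.20) and Lrig3 at 0.13 (SE 0.22), so the Lrig1 estimate was the highest of the 3 LRIG genes, a difference that was not tested. Among the receptors, Egfr stood at 0.17 (SE 0.15), Erbb2 at 0.86 (SE 0.23) and Erbb3 at 1.16 (SE 0.33), and Erbb4 was almost unread, at a mean of 0.222 normalized counts in wild type. Erbb3, which signals as a partner of ERBB2, had 138, 54.2, 237, 145 and 116 normalized counts in wild-type replicates 2 to 6 and 191, 216, 318, 276, 248 and 531 in knockout replicates 7 to 12, so that wild-type replicate 4 was above 2 knockout libraries. Ereg, the ligand epiregulin, was at 0.63 (SE 0.16). Without knockout replicates 9 and 12 the median of the list was 0.46.

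Lgr5 and Lgr6 encode receptors for R-spondins, secreted proteins that strengthen WNT signalling. Both were near the limit of detection and below the minimum level for testing. Lgr5 (chr10:115450311-115587780, minus strand) had 1, 1, 7, 3 and 3 reads in wild-type replicates 2 to 6 and 1, 5, 31, 30, 1 and 27 in knockout replicates 7 to 12. As normalized counts this was 1.81, 4.51, 7.78, 2.72 and 4.71 against 1.74, 3.47, 24.6, 11.8, 0.536 and 9.37. Knockout replicates 9, 10 and 12 were above all wild-type libraries as counted and the other 3 knockout libraries were not. In wild-type replicate 3, however, the limit of detection was 13.5 normalized counts. Knockout replicates 10 and 12 lay below that limit and cannot be ranked against it. In a fit with no minimum level the log2 fold change of Lgr5 was 0.36 (SE 0.66, limma adjusted p = 0.782).

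Lgr6 (chr1:134983301-135105276, minus strand), a marker of isthmus stem cells, had 0, 2, 8, 0 and 1 reads in wild type and 7, 5, 30, 21, 7 and 102 in knockout. The normalized counts of Lgr6 were 0, 9.03, 8.90, 0 and 1.57 against 12.1, 3.47, 23.8, 8.28, 3.75 and 35.4. The 0 in wild-type replicates 2 and 5 allowed levels of up to 5.44 and 2.72 normalized counts. Knockout replicates 9 and 12 were highest, as they were in the suprabasal score, and 3 knockout libraries were below the highest wild-type library. That wild-type library, replicate 3, had 2 reads, below its limit of detection of 13.5 normalized counts. With no minimum level the log2 fold change of Lgr6 was 1.93 (SE 0.77, limma adjusted p = 0.226).

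Lgr4, the third receptor of the family, was read at a far higher level, 89.3 normalized counts in the 5 wild-type mice and 111 in knockout, with a log2 fold change of 0.28 (SE 0.23). Of the R-spondins, Rspo1 stood at 0.50 (SE 0.20) and Rspo3 at −0.33 (SE 0.37), Rspo4 was below the minimum level and Rspo2 had no reads. The membrane ubiquitin ligases RNF43 and ZNRF3, which remove WNT receptors and are held back by R-spondin with its receptors, had log2 fold changes of 2.04 (SE 0.65) for Rnf43 and 0.79 (SE 0.35) for Znrf3. Rnf43 had 7.26, 0, 18.9, 11.8 and 3.14 normalized counts in the 5 wild-type mice and 34.7, 18.0, 31.0, 21.3, 10.7 and 45.1 in knockout, and 2 knockout libraries were below wild-type replicate 4.

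Over the whole list of 33 R-spondin and WNT genes, 24 were tested and 20 of them had a positive log2 fold change (median 0.52). An unadjusted p under 0.05 was found for 11 higher and 1 lower in knockout, in a comparison where 12.9% of all genes were higher at that p. None passed in limma, while DESeq2 called 2 higher and 1 lower, against 4.36% of all genes called. The median was 0.09 with the basal keratinocyte covariate. Wnt10a, a WNT ligand of follicle and epidermis, stood at 1.42 (SE 0.37, limma adjusted p = 0.109) and Sfrp2, a secreted WNT inhibitor of dermal cells, at −1.23 (SE 0.34, limma adjusted p = 0.109). Wnt10a was highest in knockout replicates 9 and 12, at 204 and 192 normalized counts, and Sfrp2 was highest in wild-type replicate 3, at 582. In the hedgehog list, 6 of 9 genes were tested with a median of 0.07 and none passed. Its lowest p values belonged to Smo, the signal transducer of the pathway, at 0.40 (SE 0.16), and Gli2, a transcription factor, at 0.59 (SE 0.36).

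Sox9 and Lhx2 encode transcription factors that keep bulge cells in the stem cell state. Sox9 (chr11:112782224-112787760, plus strand) had 129, 104, 128, 130 and 50.2 normalized counts in the 5 wild-type mice and 146, 80.4, 194, 125, 84.7 and 228 in knockout. The groups overlapped, with knockout replicates 12 and 9 above all other libraries and wild-type replicate 6 below all others. The means of Sox9 were 108 ± 34.1 and 143 ± 59.0 (SD over 5 and 6 mice), a log2 fold change of 0.37 with SE 0.31 (limma adjusted p = 0.465), and the log2 fold change was 0.05 without knockout replicates 9 and 12. It was −0.42 when all libraries were thinned to equal depth. SOX9 is also a factor of cartilage. The summed level of 4 chondrocyte genes was at most 2.72 normalized counts in any library.

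Lhx2 (chr2:38339281-38369733, plus strand) had 29.0, 13.5, 23.3, 9.98 and 20.4 normalized counts in the 5 wild-type mice and 17.4, 22.2, 63.5, 44.6, 15.5 and 68.4 in knockout. Knockout replicates 9, 10 and 12, the same 3 libraries that were high in Lgr5, were above every wild-type library, and the other 3 lay within the wild-type range. The means of Lhx2 were 19.3 ± 7.62 and 38.6 ± 23.6 (SD, 5 and 6 mice), with a log2 fold change of 0.82 (SE 0.42, limma adjusted p = 0.245) that was 0.32 without knockout replicates 9 and 12.

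Of 12 other bulge and hair germ genes 10 were tested, 6 of them with a positive log2 fold change and a median of 0.22. An unadjusted p under 0.05 was found for 2 higher and 2 lower, against 24.4% of all genes, and none passed in limma. The median was −0.03 with the basal keratinocyte or the depth covariate. Itga6, the integrin α6 of basal and bulge keratinocytes, stood at 0.90 (SE 0.26, limma adjusted p = 0.109). It is also part of the basal keratinocyte score. Cd34, a bulge surface marker that blood vessels also make, stood at −0.36 (SE 0.13, limma adjusted p = 0.142), and all 7 endothelial genes tested were below 0 (median −0.37, and −0.08 without knockout replicates 9 and 12). Krt15, a bulge keratin chosen after its values were seen, had 236 normalized counts in wild-type replicate 4 and 302 and 433 in knockout replicates 9 and 12, against 14.5 to 114 in the other 8 libraries. The part of endothelial cells in the Cd34 values was not tested.

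Krt75 and Krt79 are 2 type II keratins that stand apart in the follicle, the first in the companion layer and the second in the infundibulum and sebaceous duct. Krt75 (chr15:101563345-101573904, minus strand) had 927, 555, 328, 1308 and 562 normalized counts in the 5 wild-type mice and 810, 1456, 421, 1111, 1036 and 890 in knockout. Wild-type replicate 4 and knockout replicate 9 were the lowest of their groups, and the groups overlapped. The means of Krt75 were 736 ± 385 and 954 ± 344 (SD over 5 and 6 mice), a log2 fold change of 0.44 with SE 0.34 (limma adjusted p = 0.440). Krt75 is closely related in sequence to Krt6a and Krt6b, and how reads shared between them were counted is not given in the sources used here. Krt6a had its highest wild-type level, 30859 normalized counts, in replicate 4, where Krt75 was lowest. The part of shared reads in the Krt75 values was not tested.

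Krt79 (chr15:101929332-101940324, minus strand) was highest within each group in the 2 libraries where Krt75 was lowest. Wild-type replicates 2 to 6 had 19.96, 18.1, 461, 28.1 and 17.3 normalized counts of Krt79 and knockout replicates 7 to 12 had 76.3, 82.5, 352, 83.2, 23.6 and 291. The highest of all 11 libraries was a wild-type one, and 5 of 6 knockout libraries were above the other 4 wild-type libraries. The medians were 19.96 and 82.8 and the means 109 ± 197 and 152 ± 135 (SD, 5 and 6 mice). The log2 fold change of Krt79 was 1.41 (SE 0.84), with a 95% interval of −0.40 to 3.22 (limma adjusted p = 0.308). On all 11 libraries DESeq2 gave 0.46 (DESeq2 adjusted p = 0.804) and edgeR 0.37 (edgeR adjusted p = 0.817). Without wild-type replicate 4, the library highest in Krt79, the limma log2 fold change was 2.30 (limma adjusted p = 0.0455). That fit called 5.6% of 13204 genes, with 3.5% of all genes higher in knockout. Without knockout replicate 9 or 12 alone the limma log2 fold change of Krt79 was 1.06 or 1.12, and without both it was 0.61 (limma adjusted p = 0.761). The suprabasal score was high in the same 3 libraries, and its part in the Krt79 values was not tested.

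Among 25 other genes of the type II keratin cluster on chromosome 15, 23 were in the table and 9 were tested, 8 of them with a positive log2 fold change. The median was 0.95, or −0.13 with the basal keratinocyte covariate, and none passed in limma. Krt5 is in both this list and the score used as that covariate. Krt80 stood at 1.17 (SE 0.32, limma adjusted p = 0.109) and Krt78 at 2.08 (SE 0.69, limma adjusted p = 0.119). Krt1, the suprabasal keratin, chosen after its values were seen, had 5870 normalized counts in wild-type replicate 4 and 13576 and 5743 in knockout replicates 9 and 12, against 25.4 to 1168 in the other 8 libraries, the same 3 libraries that were high in Krt79. Of 10 other upper follicle genes 9 were tested, with 8 positive and a median of 0.71 (0.34 without knockout replicates 9 and 12, and 0.14 with the basal keratinocyte covariate). Prdm1, the transcription factor BLIMP1, stood at 0.89 (SE 0.25, limma adjusted p = 0.109) and Cst6, a cysteine protease inhibitor, at 0.97 (SE 0.40, limma adjusted p = 0.168). Of 12 root sheath genes 6 were tested, all 6 positive, with a median of 0.86 that was 0.44 without knockout replicates 9 and 12 and −0.26 with the basal keratinocyte covariate. In that list Krt6a stood at 0.94 (SE 0.33) and Krt16, which pairs with the KRT6 proteins in activated epidermis, at 0.85 (SE 0.37). The 3 tested genes of 16 matrix and shaft genes had a positive log2 fold change. Their median was 0.86, against −0.05 with the basal keratinocyte covariate and 0.17 with thinned reads, and it was 0.12 over the whole list when no minimum level was set. Foxn1 stood at 0.98 (SE 0.30) and Dlx3 at 0.86 (SE 0.34), both transcription factors that epidermis also makes.

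Plet1 and Cd200 encode surface proteins, and neither differed in level between the genotypes beyond the spread of the animals. Plet1 (chr9:50494525-50505482, plus strand, ENSMUSG00000032068.14), a glycoprotein of upper follicle cells, had 2392, 952, 1453, 744 and 885 normalized counts in the 5 wild-type mice and 1180, 1306, 659, 1369, 1649 and 1130 in knockout. The highest library was wild-type replicate 2 and the lowest knockout replicate 9. The means of Plet1 were 1285 ± 674 and 1216 ± 328 (SD, 5 and 6 mice), with a log2 fold change of 0.00 (SE 0.29, 95% interval −0.62 to 0.63, limma adjusted p = 0.994). Its exons overlap the antisense gene Plet1os, which has no row in the table, and reads of the pair cannot be told apart without strand.

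Cd200 (chr16:45382135-45409053, minus strand), an immunoglobulin-family protein that quiets myeloid cells through its receptor, had 232, 226, 177, 304 and 273 normalized counts in the 5 wild-type mice and 212, 269, 160, 201, 222 and 207 in knockout. Cd200 and Lrig1 varied least of the 9 genes, with coefficients of variation of 20.03% and 12.1% in wild type and 16.6% and 18.6% in knockout. Cd200 had wild-type replicate 4 and knockout replicate 9 as the lowest of their groups. The means of Cd200 were 242 ± 48.6 and 212 ± 35.1 (SD over 5 and 6 mice), a log2 fold change of −0.19 with SE 0.16 (limma adjusted p = 0.485). Of the CD200 receptor family genes, Cd200r1 stood at −0.46 (SE 0.23), Cd200r3 at 0.08 (SE 0.29) and Cd200r4 at −0.74 (SE 0.39), none past the threshold. Cd200r2 had no reads. All 8 myeloid genes tested were below 0 (median −0.67, and −0.37 without knockout replicates 9 and 12), with a summed level of 16478 to 29910 normalized counts in the 5 wild-type mice and 6407 to 22957 in knockout. The part of myeloid cells in the receptor values, and that of endothelial cells, which also make CD200, was not tested.

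**Figure D3:**
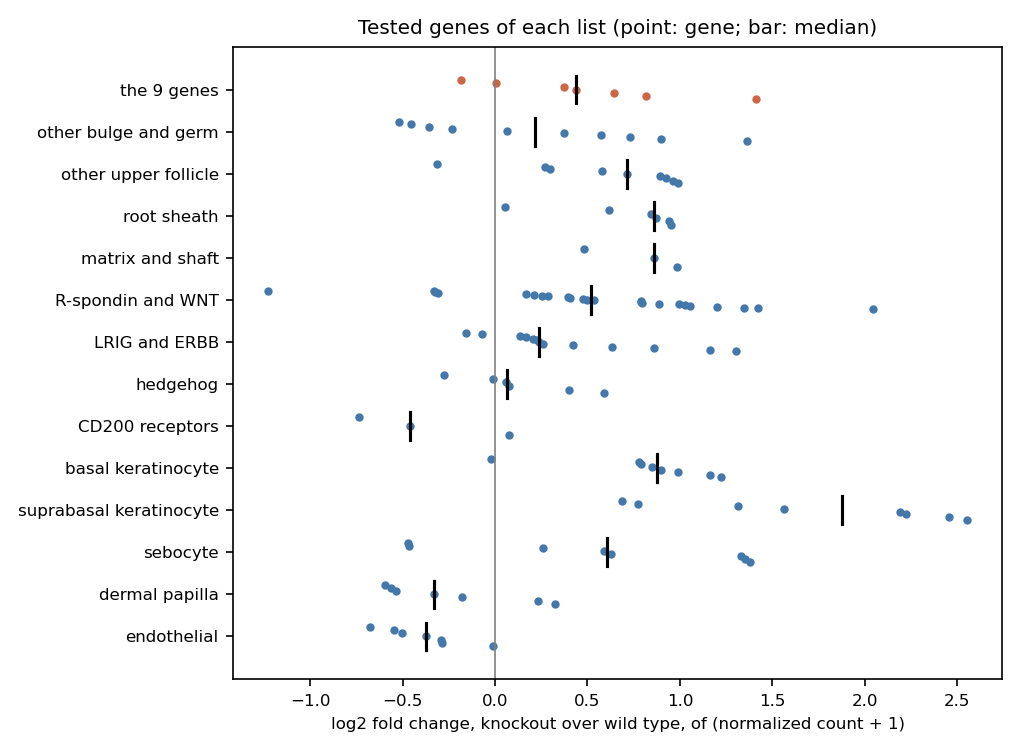
Log2 fold change, knockout over wild type, of normalized count + 1 (horizontal axis) for the tested genes of each list, with a point per gene and a bar at the list's median. The 7 tested follicle genes have a median of 0.44, between those of the suprabasal keratinocyte genes (1.88) and the endothelial genes (−0.37).

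The variation between animals was the second question. The coefficient of variation had a median of 39.6% in wild type and 36.1% in knockout over the 7 tested genes, against 22% and 21.3% over all genes tested. The wild-type median is the value of Lhx2, which had 3 to 21 reads per wild-type library, so counting error is part of it. The 7 genes and all genes were not matched for level, so the medians do not measure variation between animals alone. The knockout median was 23.6% without replicate 9. The genes did not all vary together. After the mean of each genotype was taken away, Pearson's r over the 11 libraries was 0.86 between Krt75 and Cd200 (Spearman's rho 0.70), −0.63 between Krt75 and Krt79 (rho −0.23) and −0.68 between Krt79 and Cd200 (rho −0.47). Sox9 and Krt79 had r = 0.60, Lhx2 and Krt79 r = 0.58 and Sox9 and Lhx2 r = 0.49, while Lrig1 had r between −0.11 and 0.35 with the other 6. These 21 pairs are a description, since the genes share libraries, depth and tissue composition, and several rest on wild-type replicate 4 and knockout replicate 9.

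**Figure D4:**
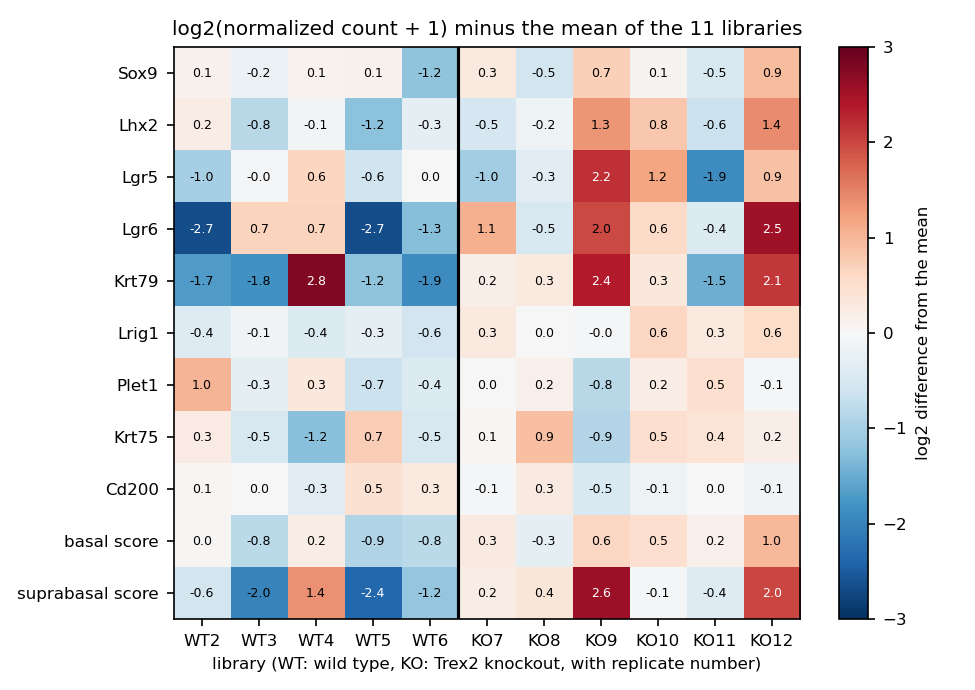
Difference from the mean of the 11 libraries in log2(normalized count + 1) for the 9 genes and both keratinocyte scores (rows) in each library (columns, wild type left of the line). Krt79, Lgr6 and the suprabasal score are high in knockout replicates 9 and 12, and Krt75 and Cd200 are low in wild-type replicate 4 and knockout replicate 9.

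The genes with the most similar pattern over the 11 libraries were sought in a pool of 9933 genes averaging 50 or more normalized counts, with genotype means removed, and the top 2 of each gene are named as a description. Being the highest of so many correlations over 11 libraries, their r values are high by selection and were not tested. For Krt79 these were Aox4, an aldehyde oxidase (r = 0.98), and Gpr115, an adhesion receptor of keratinocytes (r = 0.95). Aox4 had 135 normalized counts in wild-type replicate 4 against 3.14 to 5.44 in the remaining 4 of that genotype, and 361 and 295 in knockout replicates 9 and 12. For Plet1 they were F3, which encodes tissue factor (r = 0.95), and Hbegf, an EGF receptor ligand (r = 0.93), both highest in wild-type replicate 2, at 662 and 1479 normalized counts. Without the 2 libraries farthest from the median of Plet1, wild-type replicate 2 and knockout replicate 9, these values were 0.77 and 0.73.

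For the other genes the most alike were Dap and Artn, a neurotrophic ligand, for Krt75 (r = 0.94 and 0.90), and Fbxw2 and Eci2 for Cd200 (r = 0.96 and 0.92). They were Epb4.1l4a and Rpap1 for Sox9 (r = 0.95 and 0.95), Ints7 and Rcn1 for Lhx2 (r = 0.93 and 0.91) and Zkscan17 and Espl1 for Lrig1 (r = 0.92 and 0.91). The log2 fold changes of the named genes ran from −0.34 for Dap to 3.43 for Aox4. Of the 14 named genes 6 remained among the top 2 without knockout replicates 9 and 12.

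The last question was how the genes stood relative to the basal keratinocyte genes of the same sample. The basal score was subtracted from log2(normalized count + 1) of each gene in each library, and 7 differences were compared by exact permutation of the genotype labels over libraries, two-sided and unadjusted. Since the score is itself 0.83 higher in knockout, a gene of equal level in both genotypes comes out 0.83 lower on this scale. Over 13207 genes the median difference was −0.83, and an exact p under 0.05 was found for 53.9% of them (53.6% lower in knockout). Such a p was found for 2 of the 7 follicle genes, both lower, which is below the share of all genes.

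Plet1 differed by −0.83 (exact p = 0.0498), which is the difference of the score with its sign turned, as its own log2 fold change was 0.00. Cd200 was at −3.03 ± 0.79 in wild type and −4.05 ± 0.63 among knockouts (SD, 5 and 6 mice), a difference of −1.02 (exact p = 0.0476). Sox9 differed by −0.46 (exact p = 0.132), Krt75 by −0.40 (exact p = 0.519) and Lrig1 by −0.19 (exact p = 0.545). Lhx2 differed by −0.01 (exact p = 0.963) and Krt79 by 0.58 (exact p = 0.494). These 5 differences lay above the median of all genes.

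**Figure D5:**
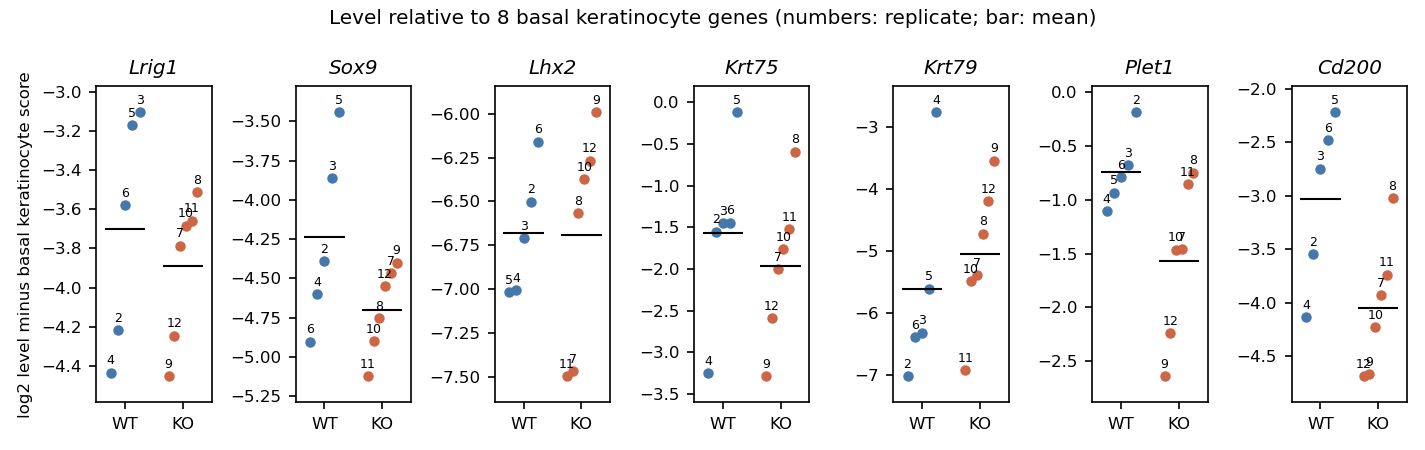
Log2(normalized count + 1) of each of the 7 tested genes minus the basal keratinocyte score of the same library (vertical axes), for wild-type (WT) and Trex2 knockout (KO) libraries labelled with the replicate number, with the group mean as a line. Cd200 and Plet1 lie lower in knockout on average, as does the median gene of the table (−0.83), and the genotypes overlap for all 7 genes.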

How the data were processed

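The authors deposited 1 table with 38406 gene symbols, whose values are a normalized signal (counts over a library's size factor). TopHat2 2.0.8, featureCounts 1.4.6, DESeq2 1.8.1 and GRCm38 are named in the submitters' processing notes, while the annotation, tool order and strandedness were not given in the sources used here. Columns are headed by replicate numbers and were matched to the samples by their titles. Divided by the smallest step of its library, 100% of values came out whole (tolerance 0.01 reads), so whole reads were recovered. No pair of libraries of a genotype differed by sampling noise alone (chi-square over its degrees of freedom at least 4.51 in 25 pairs). The design text calls the samples biological replicates.

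The test was limma 3.58.1 in R 4.3.3, fitted with the trend option to log2(normalized count + 1) for 13215 genes with a mean of at least 10, adjusted by Benjamini-Hochberg over all of them. Fold changes are knockout over wild type on that scale, which understates low genes. edgeR 4.0.16 (quasi-likelihood), DESeq2 1.42.0 and voom were run on the recovered reads. Other alternatives were pseudocounts of 0.5 and 5, a minimum of 50 or none, scaling by TMM, upper quartile or quantiles, array weights, covariates for depth or the basal keratinocyte score, reads thinned to 1208896 per library, libraries of 3000000 to 8000000 reads, leaving out each library, and leaving out knockout replicates 9 and 12. The scripts were tested on simulated counts. Single values were compared by exact permutation (scipy 1.17.1).

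The 9 genes, the 24 other lists and the tests were chosen with earlier results of these data known. Genes were named by a rule: the 9 genes, Trex2, the 2 genes of most similar pattern, direct binding partners, and in each list discussed up to 4 called genes or else the 2 of smallest p. Positions are from GENCODE M21 and promoter sequences from RefSeq (GRCm38.p6). Limits from reads cover counting error only, while the 95% intervals are those of limma and cover variation between mice.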

Additional observations from a re-analysis of the deposited data

Results flagged for a closer look

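Krt79, a keratin of the upper follicle canal, had 461 normalized counts in wild-type replicate 4, against 28.1 in the next wild-type library. The gap was 0.976 of the whole range of the 5 wild-type libraries, above the critical value of 0.710. This was the 1 sample that stood this far out among 18 groups looked at (the 9 genes in each genotype). By chance about 1 group in 20 would pass the critical value, so 1 flag among 18 groups is near that number. The gap of 0.976 was well past the critical value, and how often chance gives a gap of that size was not tested.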

How the results depend on the processing

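No paired analysis was possible because the genotypes share no replicate number (2 to 6 against 7 to 12). Limma called 2 genes, against 576 in DESeq2, 6 with array weights, 4 in edgeR and 2 to 740 when 1 library was left out. Of the follicle genes it called 0, against 1 in DESeq2 and 0 to 2 with 1 library left out, where wild-type replicate 4 gave the highest count. Of the genes of the other lists it called 0, against 16 in DESeq2 and 0 to 22 with 1 library left out. The median log2 fold change of the tested follicle genes was 0.38 to 0.64 with 1 library left out and −0.21 with the basal keratinocyte covariate. That covariate also turned Sox9 to −0.33, Lhx2 to −0.21, Krt79 to −0.55, Plet1 to −0.32 and Cd200 to 0.16, and thinned reads turned Sox9 to −0.42. Plet1, near 0, was −0.0893 in DESeq2, −0.0821 in edgeR, −0.0186 in voom, −0.0754 with a depth covariate, −0.0362 with upper quartile scaling, −0.29 in libraries of 3000000 to 8000000 reads and −0.16 to 0.26 with 1 library left out. The median coefficient of variation ranged over 35.9% to 46.2% for wild type and 23.6% to 40.7% for knockout with 1 library left out. Relative to the basal score 2 follicle genes had an exact p under 0.05 (all genes 53.9%), against 0 with Krt5 and Krt14 as the reference, 0 without knockout replicates 9 and 12 and 0 to 2 with 1 library left out. Lhx2 relative to the score was 0.0027 with Krt5 and Krt14 as the reference and −0.15 to 0.15 with 1 library left out, and without knockout replicates 9 and 12 Lrig1 was at 0.0412, Krt75 at 0.0935 and Krt79 at −0.0099. Of the 14 most alike genes 6 remained without those libraries. The causes were not tested. Depth limits Lgr5 and Lgr6, which had 15 and 11 reads in all wild-type libraries together.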
